A study of Mus musculus with 6 samples.

Results

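Aminoacyl-tRNA synthetases were followed in cultured mouse macrophages exposed to RI-BPI, a peptide made to keep the repressor Bcl6 from contacting the corepressors SMRT and NCoR. Genes of this family were taken by symbol, 34 in all. Of these, 20 code for enzymes of the cytosol and 14, with symbols ending in 2, for enzymes of mitochondria. The list does not hold the whole family, and Hars2, Vars2 and Tarsl2 are outside it. The set was chosen by symbol with results of these arrays already known, that is, the bead signals and detection p-values of the same RI-BPI and control arrays that are given here. All values below are therefore a description of the family, no test of the family as a whole was made, and a count of calls in it is no independent evidence. Of the 34 genes, 33 had a probe and 28 were measured, among 8205 genes measured of 19057 with a probe. The cells were macrophages grown in primary culture from the bone marrow of wild-type male c57Bl6/J mice, 10 weeks old, kept in MSF media for 12 h with 5 µM RI-BPI peptide or with 5 µM control peptide. Each peptide has 3 arrays, which the labels call technical replicates without saying whether they read 1 culture or 1 RNA. All errors and calls thus measure the spread between arrays, and the spread between cultures or mice was not estimated.

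Each of these enzymes joins 1 kind of amino acid to its transfer RNA, the step that makes the amino acid available to the ribosome. Cytosolic and mitochondrial translation use separate sets of enzymes, mostly from separate nuclear genes, although the glycine enzyme Gars and the lysine enzyme Kars serve both compartments. In mammals several cytosolic enzymes sit together in a multisynthetase complex, held by the scaffold proteins Aimp1, Aimp2 and Eef1e1. When an amino acid runs short, uncharged transfer RNA activates the kinase Gcn2 (Eif2ak4), translation slows, and the transcription factor Atf4 is made in greater amount. Many cytosolic synthetase genes are known targets of Atf4 in mammalian cells.

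Median bead intensity lay between 46.9 and 47.4 on RI-BPI arrays and between 45.8 and 47.4 on control arrays, with 12931 to 13843 and 13866 to 14357 probes detected. Over the members' brightest probes, the SD between arrays was at the median 1.41 times the standard error of the beads with RI-BPI and 1.04 times with control peptide. The labelled cell type was checked against markers: all 7 macrophage markers with a probe were measured, and their summed intensity was 42353 to 47829 on RI-BPI arrays and 48396 to 53547 on control arrays. Of these, Fcgr1, Adgre1 and Mertk fell and Csf1r, Cd14 and Lyz2 were not called. Itgam, undetected on the RI-BPI arrays, was at least 1.62-fold lower. No marker of fibroblasts (5 with a probe), lymphocytes (3) or erythroid cells (2) was detected on any array. Of 6 neutrophil markers, S100a8 was detected and was higher by 0.36 ± 0.11 on the log2 scale, and the other 5 were undetected throughout. The part of these shifts in the synthetase results was not tested. In such bulk RNA fewer cells of a type and less RNA per cell cannot be told apart.

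Most measured cytosolic synthetase transcripts rose with RI-BPI, and the changes of the mitochondrial ones lay around 0. Of 18 measured cytosolic enzymes, 13 rose, 2 fell and 3 were not called. Of 10 measured mitochondrial enzymes, 1 rose, 2 fell and 7 were not called. A gene is called where the limma p, adjusted by Benjamini and Hochberg over all 8205 genes, is under 0.05. In that background 30.7% of genes were called higher and 30.6% lower, and 61.3% changed in either direction, so a call by itself is common here. The median log2 change was 0.66 over the cytosolic and -0.11 over the mitochondrial enzymes, against 0.008 over all genes, whose quartiles were -0.37 and 0.36. The cytosolic median was also 0.66 with Yars, undetected in control, at its lower bound. With a change of at least 1.5-fold, 10 cytosolic enzymes were higher and 1 lower, and 0 mitochondrial enzymes were higher and 1 lower, beside 14.8% and 15.2% of all genes. The 3 RI-BPI arrays lay wholly above the 3 control arrays for 13 cytosolic and 2 mitochondrial enzymes, and wholly below them for 3 and 2. Over all genes the shares were 32.5% above and 32.3% below. No test of the difference between the 2 classes was made, since the classes were defined with their values known.

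**Figure D1:**
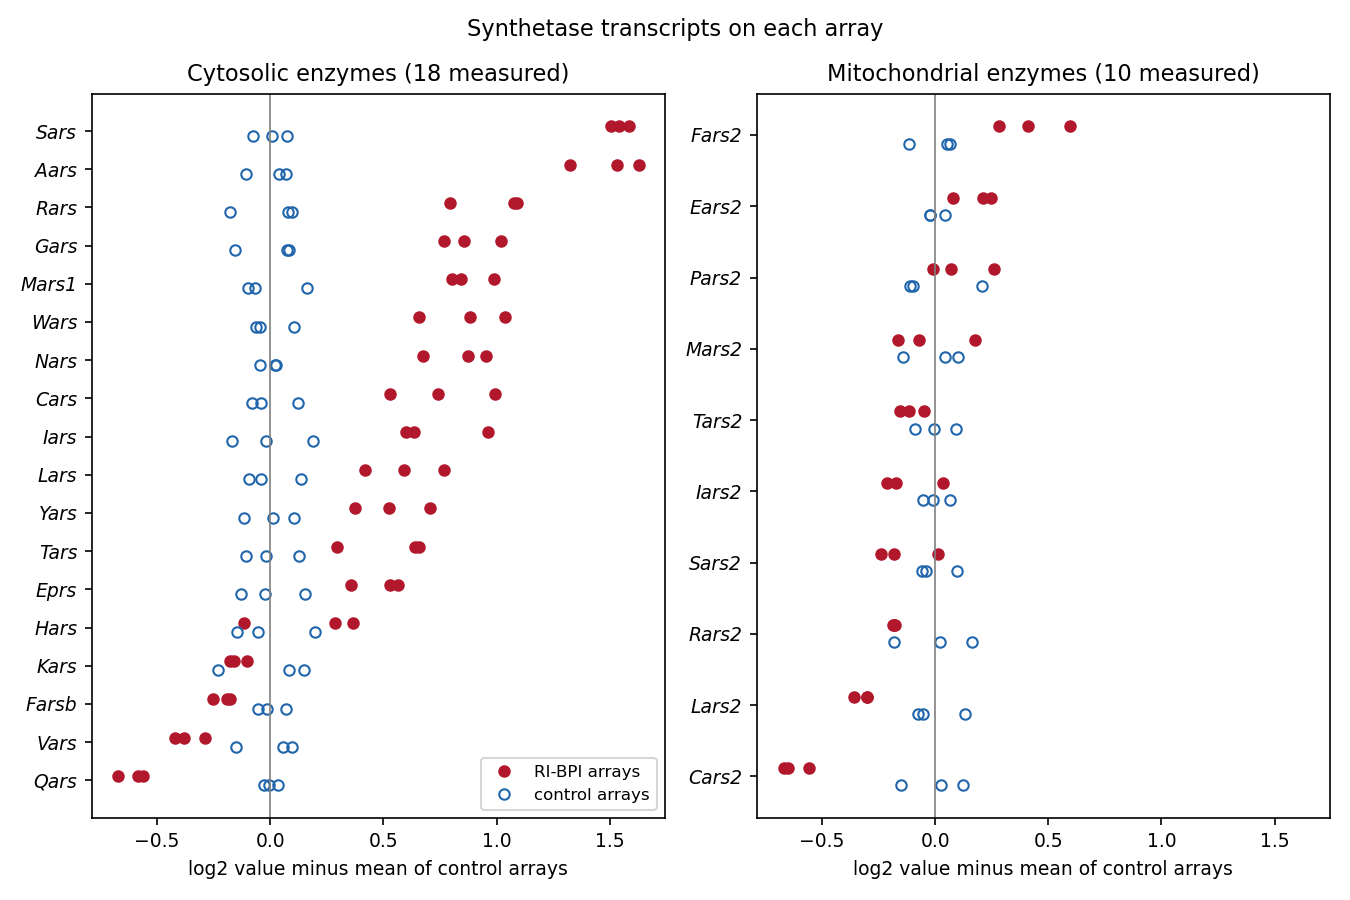
Log2 value of each measured synthetase on every array, minus the mean of its 3 control arrays, with cytosolic enzymes on the left and mitochondrial ones on the right (filled points RI-BPI, open points control). The RI-BPI points stand apart to the right for most cytosolic enzymes, from Sars at 1.54 down to Eprs at 0.48, while those of mitochondrial enzymes mostly mix with the control points.

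A short DNA element known to bind Atf4 together with C/EBP proteins, TGATGNAA, was looked for in the promoters, because the cytosolic genes moved together. RefSeq promoter sequences of the build GRCm38.p6, from 250 bases before to 50 after the gene start, were at hand for 26 of the 34 genes, and both strands were read. The element was found in 5 of 13 cytosolic genes (38.5%) and in 0 of 13 mitochondrial genes. Over all 27025 genes with a promoter sequence the share was 4.51%, and over the 6763 of them that were measured it was 2.88%. All 5 genes with the element, Aars, Gars, Iars, Tars and Yars, rose, beside 30.7% of all genes called higher. Yars was undetected on the control arrays and was kept through the RI-BPI arrays alone, so the filter largely set its direction. Sars, Eprs and Mars1 rose without a match in this window, and Cars, Hars, Lars, Nars, Rars, Vars, Wars and Pars2 are not in the sequence table. Each sequence below runs 5′ to 3′ along the gene's own strand, with the matching letters in capitals. TTGCATCA and TTTCATCA are the element read on the opposite strand.
Aars at chr8:111033704-111033763, plus strand, element at -112 to -105: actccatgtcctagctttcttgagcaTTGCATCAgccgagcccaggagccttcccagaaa
Aars at chr8:111033840-111033869, plus strand, element at 10 to 17: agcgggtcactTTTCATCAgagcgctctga
Gars at chr6:55037941-55038000, plus strand, element at -30 to -23: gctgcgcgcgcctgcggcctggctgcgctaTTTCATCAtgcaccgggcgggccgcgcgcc
Tars at chr15:11399659-11399718, minus strand, element at -15 to -8: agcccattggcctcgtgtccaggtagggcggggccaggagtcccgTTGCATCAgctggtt
Iars at chr13:49682126-49682155, plus strand, element at 8 to 15: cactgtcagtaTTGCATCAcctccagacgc
Yars at chr4:129189895-129189924, plus strand, element at 4 to 11: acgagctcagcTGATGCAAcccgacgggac
Positions count from the annotated gene start, with the first transcribed base as 1 and the base before it as -1. The element lay upstream of the start in Aars, Gars and Tars, and just inside the first transcribed bases in Iars, Yars and, a second time, Aars. These are matches of letters, and no binding was measured.

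Sars and Aars, the enzymes of serine and alanine, changed most. Sars measured 9.73, 9.70 and 9.78 on the 3 RI-BPI arrays, against 8.26, 8.11 and 8.19 on the control arrays, in log2 of normalized bead intensity. That is a difference of 1.54 ± 0.10 (standard error of the fit, n = 3 arrays per group), or 2.92-fold, and 123 of the 8205 genes stood at or above it. The values within each group lay close together and the groups were far apart. A second probe of Sars gave 1.27 ± 0.13, with 7.35, 6.86 and 7.17 on RI-BPI arrays and 5.98, 5.90 and 5.69 on control arrays. Aars, whose promoter carries the Atf4 element on both sides of the start, measured 11.42, 11.33 and 11.12 with RI-BPI and 9.83, 9.68 and 9.86 with control peptide. Its difference was 1.496 ± 0.113, or 2.82-fold. As deposited, before any normalization, the Aars beads read 2915, 2579 and 2099 on the RI-BPI arrays and 964, 881 and 925 on the control arrays. The SD between RI-BPI arrays was 410, beside a mean bead standard error of 216, and on control arrays the SD was 41.4 beside a bead error of 61.9.

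**Figure D2:**
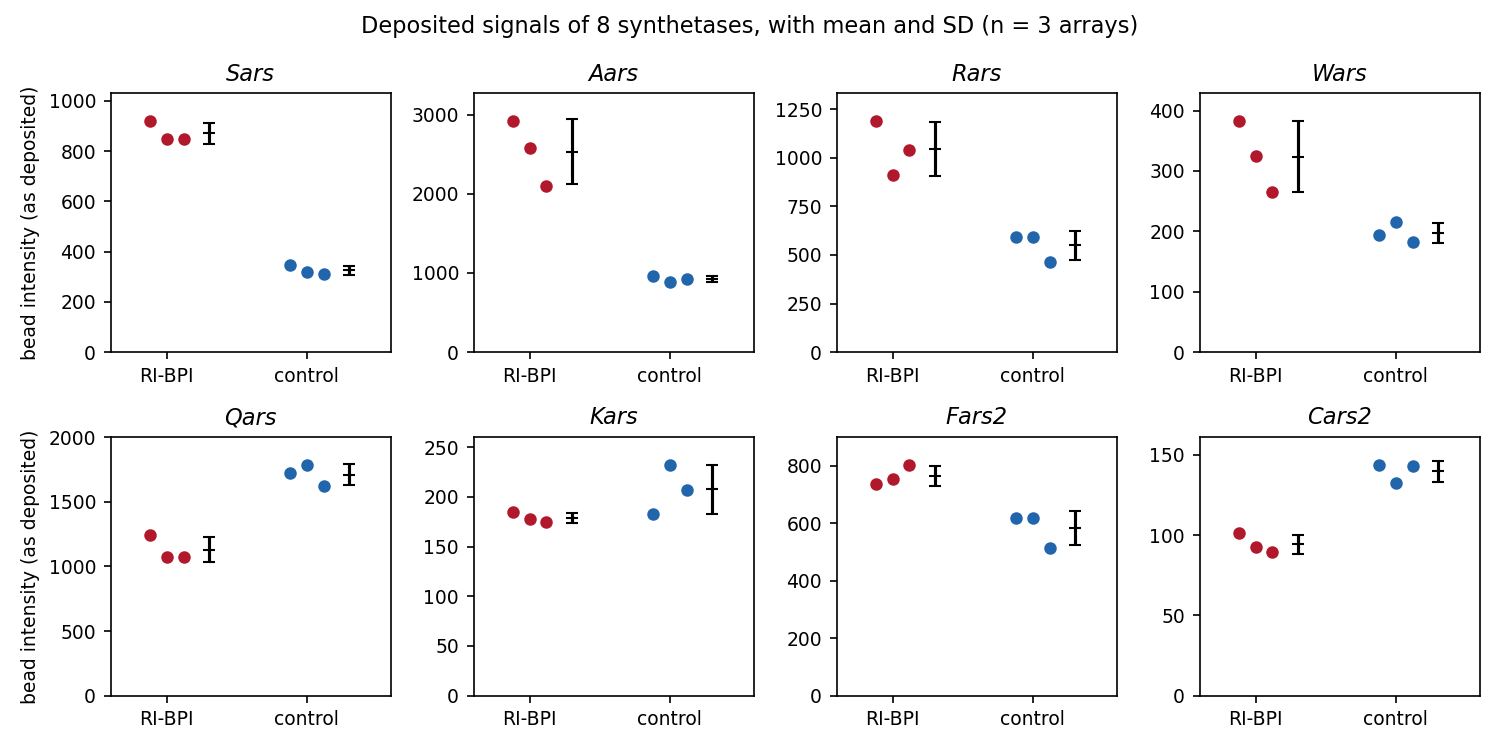
Bead intensity as deposited for 8 synthetases on each RI-BPI array (left, red) and control array (right, blue), with mean and SD of 3 arrays in black and each vertical axis starting at 0. Sars, Aars, Rars and Wars are higher on every RI-BPI array, Qars and Cars2 are lower on every one, and the arrays of Kars overlap.

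Enzymes of the multisynthetase complex mostly rose, like the other cytosolic enzymes. Of 7 measured, 5 rose, 1 fell and 1 was not called (median 0.59), beside 30.7% of all genes called higher and 30.6% lower. Outside the complex, 8 of 11 measured cytosolic enzymes rose, 1 fell and 2 were not called (median 0.75). By the fold of the catalytic domain, and leaving aside Eprs, which holds both kinds, 7 of 9 enzymes of class I rose and 2 fell. At the brightest probe 5 of 8 of class II rose and 0 fell (0 also at an unadjusted limma p under 0.05). A second probe of Farsb, of class II, was called lower (-0.44 ± 0.11), as was this gene under some other processing settings. Rars, the arginine enzyme, stood at 10.09, 9.79 and 10.08 on RI-BPI arrays and at 9.10, 9.08 and 8.82 on control arrays, a rise of 0.99 ± 0.12. The size depended on the probe: the other probe of Rars gave 0.40 ± 0.15, with overlapping arrays. Mars1, the methionine enzyme listed as Mars in older annotation, had values of 8.96, 8.81 and 8.77 with RI-BPI and of 8.13, 7.90 and 7.87 with control. Its rise of 0.88 ± 0.11 was matched by 0.89 ± 0.11 at its second probe. Iars, the isoleucine enzyme, read 8.62, 8.95 and 8.59 on RI-BPI arrays and 8.17, 7.82 and 7.97 on control arrays, a rise of 0.73 ± 0.12, with 0.39 ± 0.12 at another probe. The leucine enzyme Lars had 10.61, 10.79 and 10.45 with RI-BPI, against 9.98, 9.93 and 10.16 with control. Both probes of Lars rose by similar amounts, 0.59 ± 0.12 and 0.57 ± 0.11.

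Eprs, which carries the glutamate and the proline enzyme in 1 protein, gave the widest gap between probes among all members. Its brightest probe measured 7.005, 6.79 and 6.97 on RI-BPI arrays and 6.59, 6.41 and 6.31 on control arrays, a rise of 0.48 ± 0.11. A dimmer probe measured 6.42, 6.22 and 6.63 with RI-BPI and 4.69, 4.55 and 4.85 with control, where it was detected on 1 of 3 arrays. That is a rise of 1.73 ± 0.12, larger than that of any brightest probe in the family. The direction is the same at both, and the size is not settled.

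Qars, the glutamine enzyme and also a member of the complex, was the cytosolic enzyme that fell most. It measured 10.15, 10.04 and 10.12 on RI-BPI arrays and 10.68, 10.74 and 10.70 on control arrays, with every RI-BPI array below every control array. The difference was -0.61 ± 0.10, or 1.52-fold lower. Both other kept probes of Qars fell too, by 0.90 ± 0.14 and 0.57 ± 0.11. Kars, the lysine enzyme of cytosol and mitochondria, measured 7.25, 7.27 and 7.33 on RI-BPI arrays, inside the range of 7.20, 7.58 and 7.51 on control arrays. Its difference of -0.15 ± 0.12 was not called. Dars, the aspartate enzyme and the remaining member of the complex, had no probe under that symbol. Among the scaffold proteins only Eef1e1 was called, with a rise of 0.41 ± 0.11, and the changes of Aimp1 (-0.15) and Aimp2 (0.11) were not.

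Outside the complex, Gars, the glycine enzyme of cytosol and mitochondria, measured 12.24, 12.32 and 12.49 on RI-BPI arrays, against 11.54, 11.55 and 11.31 on control arrays. It rose by 0.88 ± 0.11. Nars, the asparagine enzyme, had values of 9.80, 9.72 and 9.53 with RI-BPI and of 8.87, 8.81 and 8.87 with control, a rise of 0.84 ± 0.11. No array of either gene crossed into the other group. The cysteine enzyme Cars was dim, at 5.72, 5.26 and 5.48 on RI-BPI arrays and 4.85, 4.65 and 4.69 on control arrays, of which 1 of 3 detected it. It rose by 0.75 ± 0.12, and a second probe, undetected on the 3 control arrays, was at least 1.30-fold higher. Yars, the tyrosine enzyme, was undetected on all 3 control arrays (4.26, 4.49 and 4.39) and detected on all 3 RI-BPI arrays (4.75, 5.08 and 4.90). It was at least 1.16-fold higher, where the dim level is set against the lowest signal of any detected probe on the same array. The threonine enzyme Tars rose by 0.53 ± 0.12, with means of 6.01 ± 0.20 (SD, n = 3) on RI-BPI arrays and 5.47 ± 0.12 on control arrays.

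Wars, the tryptophan enzyme, is also known as an interferon-induced gene, and it moved against most genes of that kind. It measured 8.39, 8.24 and 8.01 on RI-BPI arrays and 7.31, 7.46 and 7.29 on control arrays, a rise of 0.86 ± 0.12. Its other kept probes gave 0.96 ± 0.11 and 0.78 ± 0.13, so 3 probes rose by similar amounts. The probe with 0.78 was dim and was detected on 1 of 3 control arrays, so its size is less certain. Over all genes 30.6% were called lower and 30.7% higher. Of 24 measured genes in a list of interferon-induced genes, 16 fell, 3 rose and 5 did not pass (median -0.80). With median centring or the mean of probes 1 of them rose. Mx1 and Ifi47, the 2 that fell most, changed by -1.83 ± 0.14 and -1.42 ± 0.11.

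The cytosolic enzymes that did not rise were those of histidine, lysine, phenylalanine, valine and glutamine. Hars, the histidine enzyme, was near the detection limit, at 4.89, 4.97 and 4.49 on RI-BPI arrays and 4.80, 4.46 and 4.55 on control arrays, and its change of 0.18 ± 0.13 was not called. The phenylalanine enzyme is built from Farsa and Farsb. Farsa was undetected on every array at its 1 probe. Farsb measured 9.98, 10.05 and 10.06 with RI-BPI and 10.31, 10.18 and 10.23 with control, so that the arrays did not overlap, but the change of -0.21 ± 0.10 was not called (limma adjusted p = 0.0906). A second probe of Farsb gave -0.44 ± 0.11 and was called. Vars, the valine enzyme, fell by 0.36 ± 0.11, with means of 8.35 ± 0.07 on RI-BPI arrays and 8.72 ± 0.13 on control arrays. Its other kept probe gave -0.17 ± 0.11 with overlapping arrays.

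**Figure D3:**
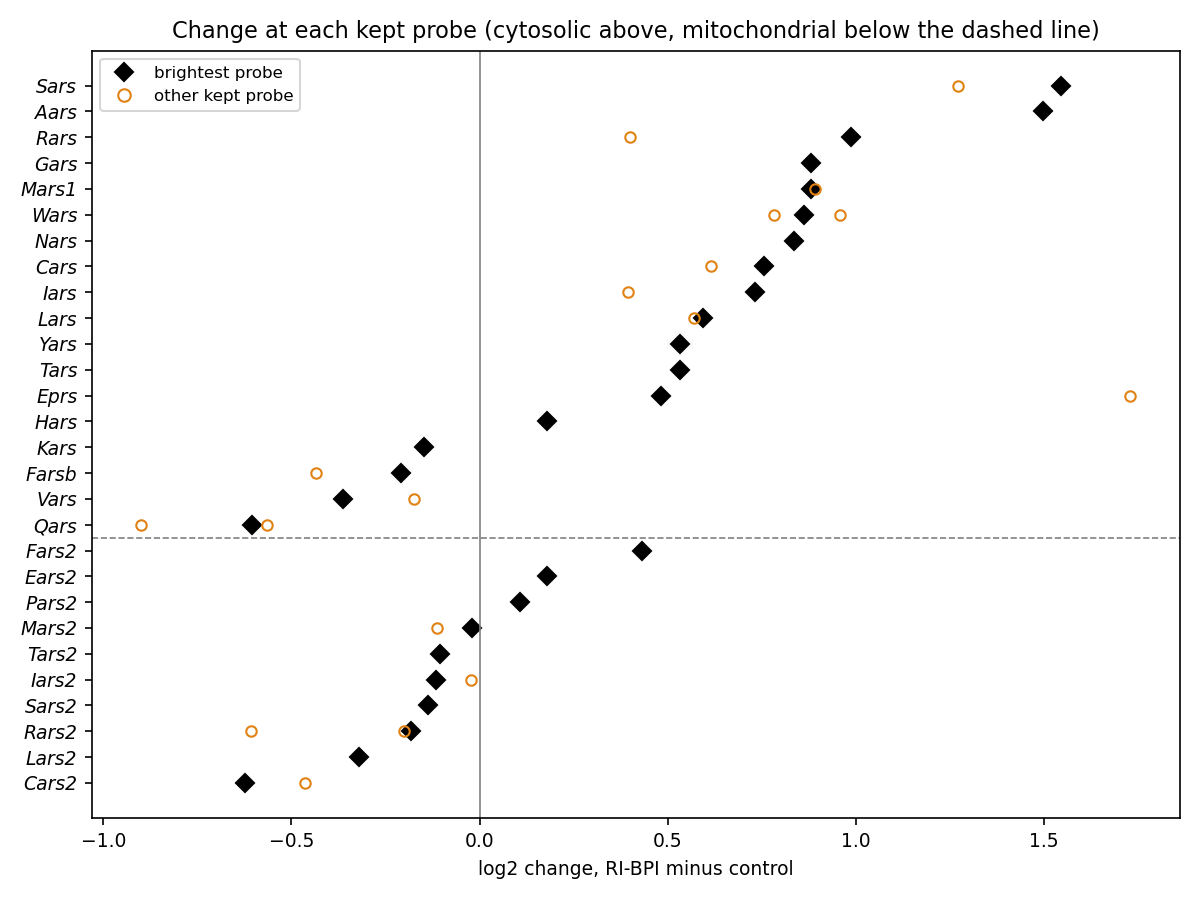
Log2 change of every kept probe of each measured synthetase, RI-BPI minus control, with the brightest probe as a black diamond and other kept probes as open circles. Probes of 1 gene mostly lie close together, with wide gaps for Eprs (0.48 and 1.73) and Rars (0.99 and 0.40). Smaller gaps are seen for Rars2 (-0.18 and -0.61), Iars (0.73 and 0.39) and Qars (-0.57 and -0.90).

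Among mitochondrial enzymes the largest change was a decrease. Cars2, for cysteine, measured 6.18, 6.09 and 6.07 on RI-BPI arrays and 6.76, 6.59 and 6.86 on control arrays, a difference of -0.62 ± 0.11, or 1.54-fold lower. Every RI-BPI array lay below every control array. A second Cars2 probe, undetected with RI-BPI, was at least 1.01-fold lower. Lars2, for leucine, fell by 0.32 ± 0.11, with means of 7.12 ± 0.03 with RI-BPI and 7.44 ± 0.11 with control (SD, n = 3 each). That call was lost without control replicate 3, where the change was -0.26. Fars2, for phenylalanine, was the 1 mitochondrial enzyme that rose, by 0.43 ± 0.11, with 9.39, 9.52 and 9.70 on RI-BPI arrays and 9.17, 9.16 and 8.99 on control arrays.

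The other mitochondrial enzymes were not called at their brightest probe. Mars2, for methionine, measured 5.61, 5.36 and 5.27 on RI-BPI arrays and 5.29, 5.47 and 5.53 on control arrays, a change of -0.02 ± 0.12. Tars2, for threonine, measured 6.57, 6.50 and 6.46 with RI-BPI and 6.53, 6.61 and 6.71 with control (-0.11 ± 0.11). The proline enzyme Pars2 measured 5.83, 5.56 and 5.64 with RI-BPI and 5.45, 5.47 and 5.77 with control, a change of 0.11 ± 0.12. Values of the 2 peptides overlapped for all 3 genes. Ears2, Iars2, Sars2 and Rars2, for glutamate, isoleucine, serine and arginine, changed by 0.18 ± 0.11, -0.12 ± 0.11, -0.14 ± 0.11 and -0.18 ± 0.11. Of 3 kept probes of Rars2, 1 gave -0.61 ± 0.12 and was called, and the mean of the 3 was called as well (-0.33). Nars2, Wars2 and Yars2 were undetected on every array, and Aars2 was detected on 1 RI-BPI array and 1 control array. A mean log2 value of at least 7 over the 6 arrays, a limit chosen with the values in view, was reached by 13 cytosolic and 4 mitochondrial enzymes, whose median changes were 0.84 and -0.15.

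For 9 amino acids the cytosolic and the mitochondrial enzyme were set side by side, and in 8 of these pairs the cytosolic change was the higher. Eprs was paired for glutamate only. The proline pair, with 0.48 for Eprs and 0.11 for Pars2, was also measured but is left out of these counts. So is the valine pair, since Vars2 is not among the 34 genes. There the cytosolic change was the lower, with -0.36 for Vars and -0.20 for Vars2. Serine had the widest gap, with 1.54 for Sars and -0.14 for Sars2. Cysteine followed, with 0.75 for Cars and -0.62 for Cars2, so that its 2 enzymes were called in opposite directions, as were those of leucine with 0.59 for Lars and -0.32 for Lars2. Arginine, methionine, isoleucine, threonine and glutamate ran the same way, with differences of 1.17 for Rars minus Rars2, 0.90 for Mars1 minus Mars2, 0.85 for Iars minus Iars2, 0.64 for Tars minus Tars2 and 0.30 for Eprs minus Ears2. Phenylalanine was the exception among these 9, with -0.21 for Farsb and 0.43 for Fars2. The median of the 9 differences was 0.90.

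**Figure D4:**
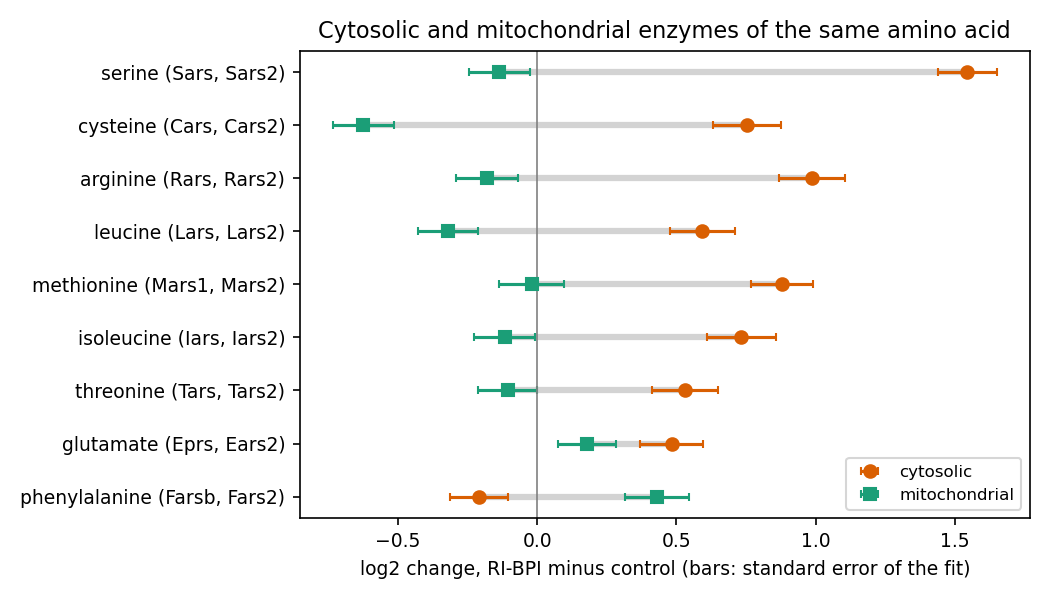
Log2 change, RI-BPI minus control, of the cytosolic (circle) and mitochondrial (square) enzyme of each of 9 amino acids, with bars for the standard error of the fit. The circle lies to the right of the square for every amino acid shown except phenylalanine.

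Genes tied to the sensing of uncharged transfer RNA were measured in part. Atf4 itself rose, with 12.11, 11.85 and 11.58 on RI-BPI arrays, against 10.61, 10.74 and 10.54 on control arrays, by 1.22 ± 0.13. Impact, an inhibitor of Gcn2 activation, rose by 0.99 ± 0.11. The kinases Eif2ak2, which senses double-stranded RNA, and Eif2ak1, which senses heme, fell by 0.49 ± 0.11 and 0.37 ± 0.12. Gcn2 (Eif2ak4) was detected on 1 RI-BPI array and no control array. Gcn1, the activator of Gcn2, and the kinase Eif2ak3 were undetected throughout. No change is given for these genes.

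Known targets of Atf4 in the amino acid response rose with few exceptions. Of 21 measured in that list, 19 rose, 0 fell (0 also at an unadjusted p under 0.05 in limma) and Psat1 and Herpud1 did not pass (median 1.36), beside 30.7% of all genes called higher. In the mean of its probes Herpud1 was called lower (-0.38 ± 0.09), and the call on Phgdh, the serine synthesis enzyme, was lost under 4 other processing settings, which left 18 higher. The list was written with earlier results of these arrays known. Trib3, a pseudokinase that restrains Atf4, changed by 3.87 ± 0.11, Ppp1r15a, which lets translation resume, by 3.25 ± 0.12, and the transcription factor Ddit3 (CHOP) by 2.89 ± 0.12. Slc7a11, the cystine carrier, rose by 2.31 ± 0.12. The largest rise of a synthetase at its brightest probe, 1.54 for Sars, was thus smaller than the rise of these 4 genes. The Atf4 element stood in the promoters of 9 of the 25 genes of this list that have a promoter sequence (36%), beside 38.5% of the cytosolic synthetases.

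Amino acid carriers moved in both directions. Of 12 measured, 6 rose, 2 fell and 4 did not pass (median 0.20), beside 30.7% of all genes called higher and 30.6% lower. Slc6a9, a glycine carrier, measured 9.22, 9.14 and 9.30 on RI-BPI arrays and 6.73, 6.60 and 6.61 on control arrays, a rise of 2.58 ± 0.11. Slc3a2, the partner chain of several amino acid exchangers, rose by 2.29 ± 0.12. Slc1a4, a carrier of alanine, serine and cysteine, was undetected on the control arrays and at least 2.05-fold higher with RI-BPI. Of the 2 that fell, Slc7a7, an exchanger of basic amino acids, changed by -1.12 ± 0.11, or 2.17-fold lower, and Slc38a9, a lysosomal arginine carrier, by -0.52 ± 0.11.

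Genes that act on transfer RNA before and after charging were mixed. In the list of transfer RNA proofreading and modification 11 of 18 measured rose, 4 fell and 3 did not pass (median 0.42). Over all genes 30.7% were called higher and 30.6% lower. Trmt61a, a subunit of the enzyme that methylates an adenosine in transfer RNA, rose by 1.05 ± 0.12, and Yrdc, which helps make the threonylcarbamoyl mark beside the anticodon, by 0.82 ± 0.12. Osgep, the catalytic subunit of the complex that places the same mark, fell by 0.73 ± 0.12. Dtd1, which removes wrongly attached D-amino acids, fell by 0.78 ± 0.11. Of 8 measured helpers of mitochondrial transfer RNA charging, 1 rose, 2 fell and 5 did not pass (median -0.11), beside 30.7% of all genes called higher and 30.6% lower. Gatc and Qrsl1, subunits of the enzyme that makes mitochondrial glutaminyl-tRNA in place of a glutamine synthetase, fell by 0.49 ± 0.11 and 0.34 ± 0.10, and Gatb, another subunit, was not called (-0.13 ± 0.11). Trnt1, which adds the CCA end to transfer RNAs of both compartments, rose by 0.65 ± 0.11.

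Elongation factors, which carry charged transfer RNA to the ribosome and move it along, had a median change of 0.08. Of 10 measured, 0 rose with limma at the adjusted threshold (2 at an unadjusted p under 0.05), 3 fell and 7 did not pass. Over all genes 30.7% were called higher and 30.6% lower. Eef2, the cytosolic translocation factor, measured 6.29, 6.40 and 6.60 on RI-BPI arrays and 7.72, 7.81 and 7.74 on control arrays, a difference of -1.33 ± 0.11. The Eef2 probe was dim, beside a mean of 14.18 with RI-BPI for Eef1a1, and whether it reads the main Eef2 transcript was not tested. Gfm1, the mitochondrial counterpart of Eef2, changed by -0.36 ± 0.12. That call was lost without RI-BPI replicate 3 (-0.22), without control replicate 3 (-0.33) and with no filter on dim probes. Of further synthetase genes outside the list of 34, Vars2 was not called (-0.20 ± 0.11) and Hars2 was undetected on every array. Tarsl2, undetected with RI-BPI, was at least 1.16-fold lower.

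**Figure D5:**
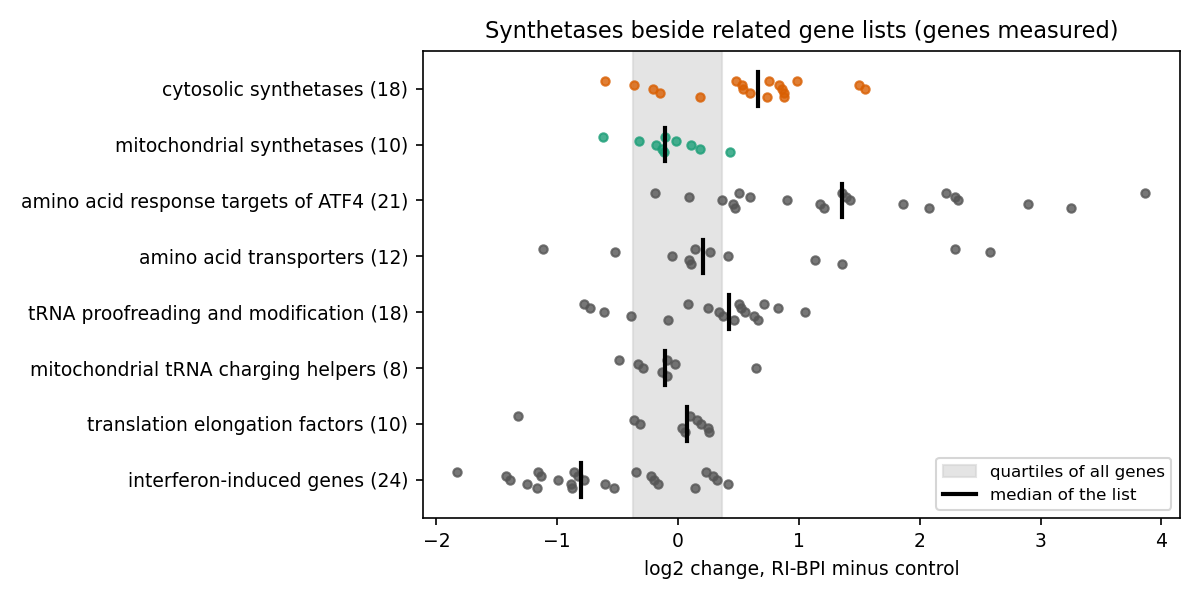
Log2 change, RI-BPI minus control, of each measured gene in the 2 synthetase classes and 6 related lists, with the list's median as a black bar and the quartiles of all 8205 genes (-0.37 and 0.36) as a grey band. The median of the cytosolic synthetases (0.66) lies between that of the Atf4 targets (1.36) and the band, while single cytosolic genes spread wider. The mitochondrial synthetases (-0.11) and elongation factors (0.08) have their medians inside the band.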

How the data were processed

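Per the file headers, the authors deposited for each of 6 arrays the mean bead intensity per probe, its standard error, the bead count and a detection p-value, without normalization. The submitters' processing notes name GenomeStudio. A second deposited table holds intensity normalized by a method not given in the sources used here, and served as an alternative. Of 45281 probes, 34885 had 1 symbol in the platform annotation. From these values, background was corrected with normexp in limma 3.58.1 (R 4.3.3, offset 16, background from the detection p-values), followed by quantile normalization and log2. Probes detected at p under 0.01 on at least 3 of 6 arrays were kept (13975), and the brightest represented each gene. Groups were compared with lmFit and eBayes, two-sided, adjusted over 8205 genes. The fit was also run on simulated data in which few genes changed, whereas most genes were called here. That run gives no check of the calls in this design. A group undetected on its 3 arrays gives "at least N-fold". Members and lists were chosen with earlier results of these data known. By a rule set with them, array values are given for members changed at least 1.5-fold and the 3 nearest to 0 in each class, other probes where they differ in sign or by 1.5 times, and up to 4 genes per related list. Further probes, members and list genes were named after their values were seen. Alternatives were other background, scaling, filter and probe rules, a replicate block, and leaving out each array. The number of arrays limits the precision.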

Additional observations from a re-analysis of the deposited data

How the results depend on the processing

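The 15 calls on cytosolic enzymes (13 higher, 2 lower) and the call on Fars2, Cars2 and, but for 1 array, Lars2 kept their direction and side of the threshold wherever the gene was measured. Detection on all 6 arrays removed Cars, Hars and Yars. The median over cytosolic enzymes moved to 0.45 with no background correction, 0.48 with an offset of 50 and 0.47 in the authors' normalized table, and to 0.84 over the 13 with a mean log2 of at least 7. Leaving out each array gave 0.58 to 0.73. The median over mitochondrial enzymes moved to -0.21 with median centring (-0.078 for the median over all genes), to -0.070 with no filter and to -0.15 over the 4 brighter members. Leaving out each array gave -0.16 to -0.073. The count of mitochondrial enzymes called lower was 1 without control replicate 3 and 1 over the brighter members, and 2 without each other array. The sign turned for Mars2 without RI-BPI replicates 2 or 3 and control replicates 2 or 3 (-0.12 to 0.053 over the 6 arrays left out in turn) and for Pars2, to -0.044 with median centring. Neither was called. Farsb was called lower with no background correction, an offset of 50, the authors' table, no filter and the mean of probes, Hars higher without RI-BPI replicate 3, and Sars2 lower with median centring. Eprs rose by 1.11 in the mean of its probes. With no background correction, Cars and Yars rose by 0.33 and 0.23. The cause of these shifts was not tested. Calls over all genes ranged from 4526 to 5136, and with median centring 1988 were higher and 2807 lower. Deviations of same-numbered arrays correlated at 0.002 to 0.03. RI-BPI replicates 1 and 3 correlated best with the control array of their own number, and replicate 2 with control replicate 1. With 3 arrays per group these values cannot tell whether equal replicate numbers mark paired arrays. With the replicate block 5060 genes, 15 cytosolic and 3 mitochondrial enzymes were called.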
